A study of Mus musculus with 19 samples.

Results

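Splenic B cells sorted as germinal centre cells from mice labelled wild type were set against splenic naive B cells labelled wild type, to ask which activated B cell state the sorted cells hold. The comparison takes 6 of the 19 libraries of the series, 3 in each group, and 8908 of 15235 gene names that occur once in both deposited tables. The GC WT (germinal centre, wild type) libraries came from spleen cells gated on CD95 (Fas) and the GL7 glycan, in mice labelled wild type. The naive WT libraries came from spleen cells gated as CD3-, B220+ and IgD+, also labelled wild type. Both groups were taken on day 28 after intraperitoneal immunization with sheep red blood cells, which are used to raise a T cell-dependent response. The series as a whole compares such mice with mice lacking Pik3cg, which encodes the p110γ catalytic subunit of phosphoinositide 3-kinase. Its 4 germinal centre libraries labelled knockout (GC KO) and 3 spleen antibody-secreting cell libraries labelled wild type, gated on CD138, are used below to place the GC WT libraries. Strain and age were not used here. The columns of the naive and antibody-secreting cells labelled wild type are headed HET, so groups are called by their sample labels.

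A germinal centre is the structure in which antigen-activated B cells divide, mutate their antibody genes and are selected with T cell help. Its cells express the repressor Bcl6 and confinement genes such as S1pr2 and Rgs13. They move between a dark zone of division and a light zone where antigen and CD40 signals are received. Other activated B cells stay outside: early activated blasts, plasmablasts that turn on Prdm1, Irf4 and Xbp1, and memory cells. Naive follicular B cells are quiescent, recirculate through Ccr7 and S1pr1, and carry IgM and IgD.

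Values are CPM, counts per 1000000 rescaled to the shared genes without immunoglobulin genes and Jchain. Genes averaging 10 CPM or more over the 6 libraries were compared. A gene is called higher or lower when the 3 GC WT values lie all above or all below the 3 naive WT values and the mean log2(CPM + 1) differs by at least 1, which is 2-fold. Differences are GC WT minus naive WT on that scale, ± the standard error over 3 and 3 libraries, and understate the difference of low genes. The groups lie in tables that the authors normalized separately, so no test was made between them, and cell type and table cannot be told apart.

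By this rule 2205 genes (24.8%) were called higher and 1952 (21.9%) lower, and the median difference was 0.10. Under the same rule within the naive table, libraries labelled knockout differed from those labelled wild type in 134 of 8571 genes (1.56%). Gene class shaped the counts. Of 7767 protein-coding genes, 2156 (27.8%) were higher and 1123 (14.5%) lower. Of 1004 pseudogenes, 30 (2.99%) were higher and 774 (77.1%) lower, with a median of −2.50. Higher calls made up 53.04% of all calls and 65.75% among protein-coding genes. The 2200 pseudogenes in both tables took 5.68% ± 0.44 of the total in GC WT libraries and 17.8% ± 0.82 in naive WT libraries (SD, n = 3 each). They took 5.62% ± 0.21 in the GC KO libraries of the same table (SD, n = 4), so both germinal centre groups of that table had the low share. Genes with near-identical copies, including ribosomal protein, haemoglobin and Hspa1 genes, therefore carry an uncertain split of reads. Gene lists below are read against the protein-coding shares.

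**Figure D1:**
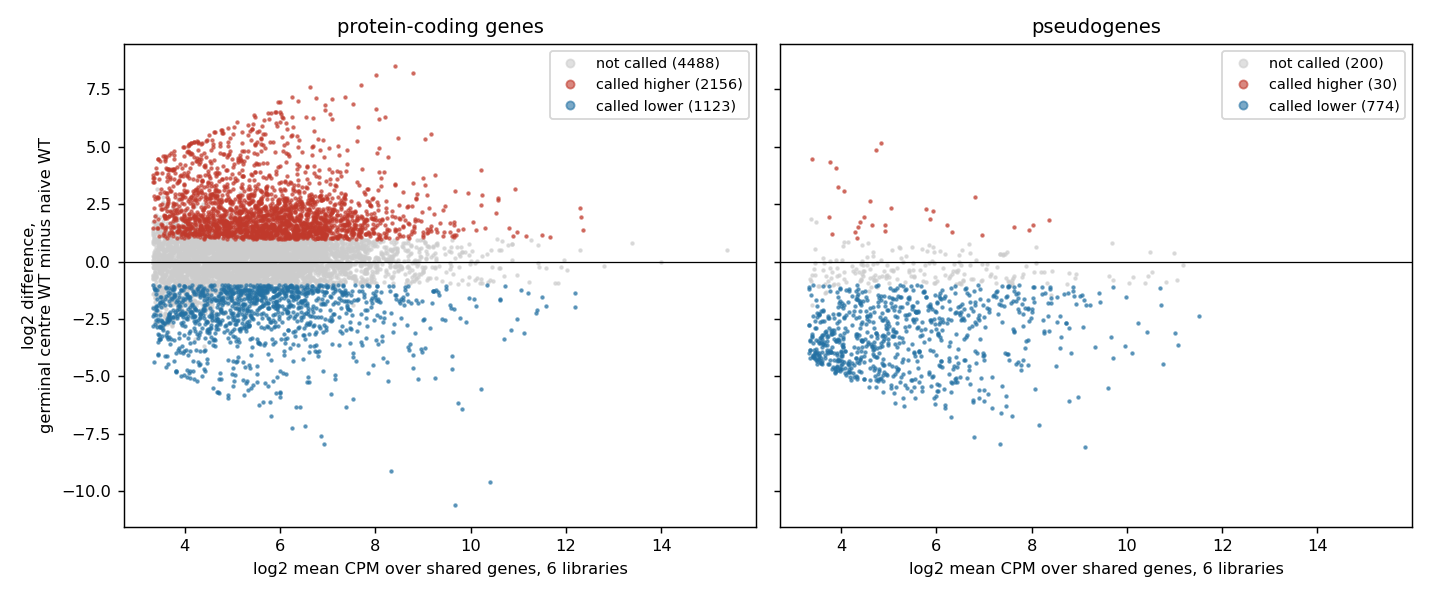
The log2 difference (GC WT minus naive WT) against the log2 mean CPM of the 6 libraries, with 1 point per gene, for protein-coding genes (left) and pseudogenes (right). Protein-coding genes spread to both sides, with 2156 called higher and 1123 lower, whereas 774 of 1004 pseudogenes were called lower.

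Depth, as the worth of 1 read in the low values shows it, was 19.6 to 21.6 M reads in GC WT libraries and 11.4 to 13.1 M in naive WT libraries (M, 1000000). There, 3 reads were worth 0.152 to 0.181 CPM in GC WT and 0.248 to 0.284 CPM in naive WT. Those limits cover counting error only. Pearson correlations between replicates, across the compared genes, were 0.834 to 0.887 in GC WT and 0.904 to 0.921 in naive WT. Genes are not independent replicates. Immunoglobulin genes took 6.78% to 13.2% of the total in GC WT and 3.86% to 4.12% in naive WT. GC WT replicate 3 had the Y-linked gene Ddx3y at 159 deposited CPM and Xist at 0, unlike the other 6 germinal centre libraries, which had Ddx3y at 0. Xist was at 132, 82.1 and 85.9 CPM in the naive WT libraries, so none of them matched GC WT replicate 3 in this gene. The part of sex in the differences below was not tested. Pik3cg was at 69.3, 57.7, 7.23 and 10.1 CPM in GC KO libraries, labelled as lacking the gene, 62.1, 40.5 and 23.0 CPM in GC WT and 123.8, 119 and 119 CPM in naive WT libraries. GC KO and GC WT overlapped (adjusted p = 0.696 by limma), so the level of this transcript does not separate the labels, and whether its reads come from a deleted part was not examined.

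Cell cycle genes were high in the GC WT libraries. All 34 genes of the G2/M and mitosis list and 30 of 32 compared genes of the G1/S and DNA replication list were called higher, and none lower. The G2/M list summed to 4706 CPM ± 773 in GC WT libraries and 136 CPM ± 63.2 in naive WT libraries (SD, n = 3 each). The median difference over its members was 5.39, against 0.30 over all protein-coding genes. The promoters of 3 of these genes are shown because mitotic genes commonly carry a CHR element and CCAAT boxes close to their start. They are from RefSeq on GRCm38.p6, 5′ to 3′ on the gene's strand, from 250 bases before to 50 after the start. Capitals mark the CHR letters TTTGAA and the letters CCAAT, read on both strands.
Kif11, chr19:37376132-37376431, plus strand: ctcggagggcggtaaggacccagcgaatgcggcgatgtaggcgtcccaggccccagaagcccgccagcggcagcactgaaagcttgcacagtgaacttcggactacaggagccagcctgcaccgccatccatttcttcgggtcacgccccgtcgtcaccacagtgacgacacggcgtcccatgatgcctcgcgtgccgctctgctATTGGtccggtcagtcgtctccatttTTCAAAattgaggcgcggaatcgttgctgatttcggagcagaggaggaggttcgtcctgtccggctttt
Mki67, chr7:135716330-135716629, minus strand: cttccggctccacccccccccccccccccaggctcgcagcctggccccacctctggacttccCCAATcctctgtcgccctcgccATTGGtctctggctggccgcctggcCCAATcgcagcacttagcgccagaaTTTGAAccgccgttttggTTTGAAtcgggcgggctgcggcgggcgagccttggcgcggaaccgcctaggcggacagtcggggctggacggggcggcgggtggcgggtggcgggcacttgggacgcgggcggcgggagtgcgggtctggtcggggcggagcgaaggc
Birc5, chr11:117848987-117849286, plus strand: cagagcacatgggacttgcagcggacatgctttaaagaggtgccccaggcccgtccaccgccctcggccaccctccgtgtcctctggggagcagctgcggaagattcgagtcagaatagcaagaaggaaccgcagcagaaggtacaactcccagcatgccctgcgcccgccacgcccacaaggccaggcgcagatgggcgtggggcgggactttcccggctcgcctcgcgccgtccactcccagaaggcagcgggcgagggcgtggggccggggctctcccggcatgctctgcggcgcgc
In Kif11, the CHR letters began 19 bases before the start and the CCAAT letters 45 bases before it. Mki67 had 2 CHR matches and 3 CCAAT matches. Birc5 had neither in this window, although it was called higher too. Of the 34 genes, 30 had a promoter in the RefSeq table. CHR letters occurred in 22 of these (73.3%), against 20.2% of 27025 genes with a promoter in the table. CCAAT letters occurred in 24 (80%), against 41.1%. A match is a run of letters, not a bound site.

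Kif11, the mitotic spindle kinesin, was at 114, 264 and 264 CPM in GC WT libraries and 2.07, 0 and 0 CPM in naive WT libraries, a difference of 7.11 ± 0.67. Mki67, a protein of cycling cells, was at 216, 399 and 466 CPM in GC WT, against 22.0, 0.0923 and 0 CPM in naive WT, a difference of 6.87 ± 1.52. Naive WT replicate 1 held most of the naive signal for both, and the groups stayed far apart. Birc5, the survivin subunit of the chromosomal passenger complex, stood at 173, 297 and 259.1 CPM in GC WT and 1.49, 5.08 and 0 CPM in naive WT. The mitotic cyclin gene Ccnb1 reached 118, 180.2 and 144 CPM in GC WT libraries, with 0.827, 2.03 and 5.40 CPM in naive WT. Of the replication genes, Rrm2, a ribonucleotide reductase subunit, was at 853, 1098 and 1125 CPM in GC WT and 30.7, 15.97 and 27.7 CPM in naive WT. Cdc6, which loads the replicative helicase, had 92.2, 103 and 217 CPM in GC WT and 0, 0 and 6.34 CPM in naive WT. The helicase subunit Mcm5 was closer, at 61.2, 171 and 163 CPM in GC WT and 38.1, 14.7 and 32.2 CPM in naive WT libraries. In 34 tested G2/M genes, GC KO libraries were higher than GC WT libraries in 3 and lower in none (limma, adjusted p under 0.05, Benjamini-Hochberg). Over all 8522 genes tested, 8.54% were higher in GC KO and 5.09% lower, so the higher count is near the share of all genes.

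Rgs13, Gcsam and S1pr2, which mark germinal centre B cells, were at 0 in all GC WT libraries, while the core list as a whole was mixed. Of 22 germinal centre core genes, 13 reached the 10 CPM mean, and of these 4 were called higher, a share near that of protein-coding genes, 5 lower and 4 neither. The 9 under the filter were Bcl6, Rgs13, Gcsam, S1pr2, Mybl1, Nuggc, Efnb1, Plxnb2 and Rassf6. With no filter on low values, 5 of the 22 were higher and 8 lower, against 17.9% and 20.5% of 14697 genes. Rgs13, which damps chemokine receptor signals (chromosome 1, 144138654 to 144177372, mm10), was at 0 in all 3 GC WT libraries, against 30.3, 11.0 and 16.1 CPM in naive WT. Taken against the highest 3-read limit of the GC WT libraries, it was at least 105-fold lower. Gcsam, a germinal centre adaptor that limits B cell motility, was likewise at 0, against 2.90, 2.40 and 4.73 CPM in naive WT. S1pr2, the confinement receptor, was at 0 in the 3 GC WT libraries, and in naive WT libraries it reached at most 0.0923 CPM. Bcl6 was at 1.78, 1.24 and 0.484 CPM in GC WT, against 12.2, 9.51 and 8.05 CPM in naive WT, lower in every GC WT library though under the filter. In bulk RNA, fewer cells of a type and less RNA per cell cannot be told apart. Of the markers that the label germinal centre implies, Fas of the gate was high, and Rgs13, Gcsam, S1pr2 and Bcl6 were not.

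Fas, the CD95 of the gate, was at 248, 233 and 257 CPM in GC WT libraries and 14.5, 12.9 and 14.4 CPM in naive WT libraries, a difference of 4.05 ± 0.06. Since the cells were gated on it, it is no separate evidence. The other called-higher core genes were Ezh2, Mef2b and Basp1. Ezh2, the Polycomb methyltransferase that also follows division, was at 186, 119.6 and 165 CPM in GC WT and 6.78, 7.57 and 6.82 CPM in naive WT. Spib, an Ets factor of B cells, was at 14.5, 23.7 and 19.4 CPM in GC WT and 352, 319.8 and 388 CPM in naive WT libraries, a difference of −4.15 ± 0.21. Gcnt1, a glycosyltransferase, had 0, 14.4 and 9.56 CPM in GC WT and 55.3, 90.6 and 28.1 CPM in naive WT, a difference of −3.28 ± 1.32 that was −2.06 without GC WT replicate 1.

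Of the dark zone genes outside the cell cycle, 4 of 9 compared were lower and none higher. Foxo1, which maintains the dark zone, was at 59.8, 38.3 and 64.4 CPM in GC WT libraries and 133, 141 and 129.5 CPM in naive WT. Bach2, a repressor of plasma cell fate, was at 15.9, 38.7 and 59.5 CPM in GC WT and 157, 154 and 149 CPM in naive WT. The cyclin gene Ccnd3 differed by −1.06 ± 0.42 and Bcl11a, a B cell transcription factor, by −1.05 ± 0.12, both near the threshold. Without GC WT replicate 3, Ccnd3 differed by −0.65 and was not called. Bcl11a was not called without GC WT replicate 1 (−0.98) or naive WT replicate 1 (−0.97). Cxcr4, the dark zone chemokine receptor, overlapped, at 14.9, 27.2 and 32.4 CPM in GC WT and 43.3, 24.6 and 45.3 CPM in naive WT. Of 9 gating and GL7 glycan genes 3 were higher and 2 lower. Cmah, the hydroxylase whose loss goes with GL7 staining in mouse B cells, was at 40.9, 73.1 and 83.3 CPM in GC WT and 141, 158 and 163 CPM in naive WT libraries, a difference of −1.28 that was −0.97, and not called, without GC WT replicate 1. St3gal6, a sialyltransferase, was higher, at 291, 243 and 304 CPM in GC WT and 58.2, 73.6 and 68.8 CPM in naive WT. St6gal1, which makes the underlying sialyl linkage, was at 185, 227 and 238 CPM in GC WT and 163, 141 and 175 CPM in naive WT and was not called.

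**Figure D2:**
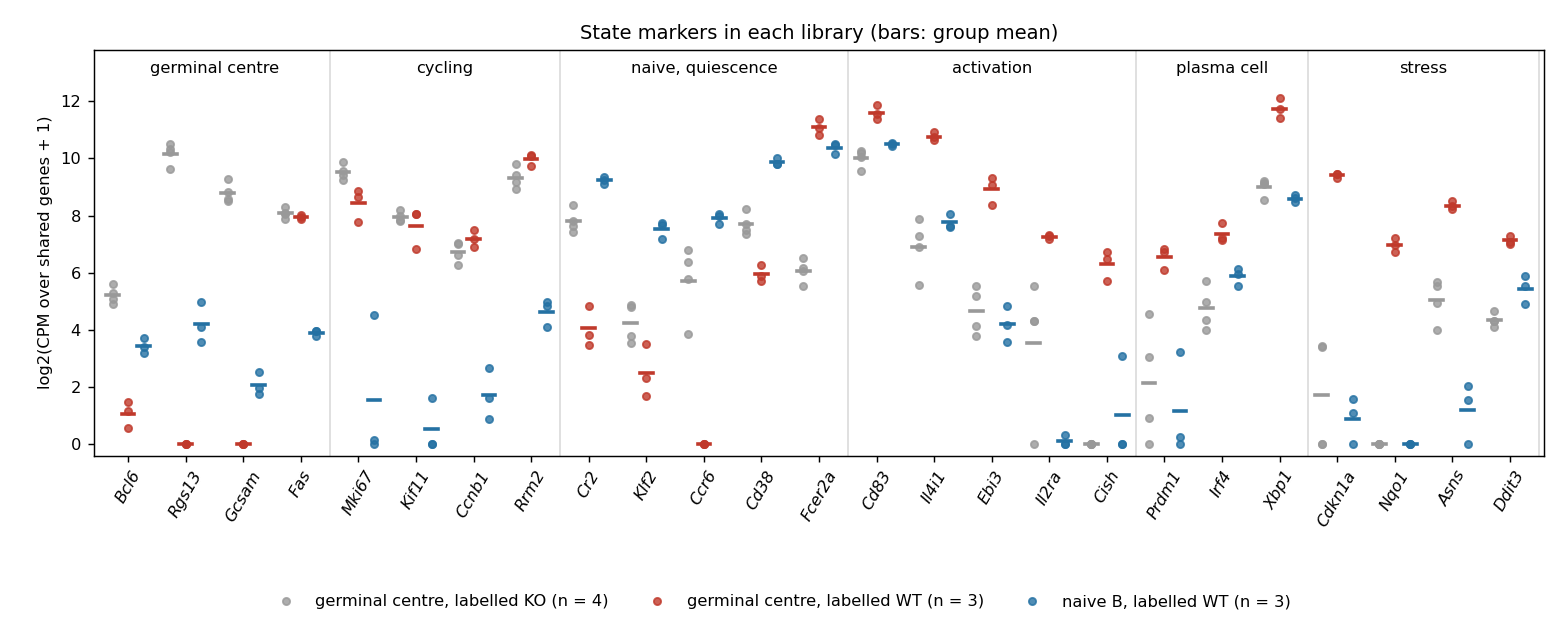
Values of marker genes on the log2(CPM + 1) scale in each GC KO, GC WT and naive WT library (points), with the mean of the plotted values of each group as a bar. GC KO and GC WT libraries overlapped for Kif11, Ccnb1, Rrm2 and Fas. GC WT libraries were at 0 for Rgs13 and Gcsam, and lay above both GC KO and naive WT libraries for Il4i1, Ebi3, Xbp1 and Cdkn1a.

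The naive programme was lower in the same libraries. Of 22 follicular naive genes 18 were called lower and none higher, and of 20 quiescence and Foxo genes 16 were lower and none higher, against 14.5% lower among protein-coding genes. Cr2, the complement receptor CD21, was at 10.1, 27.8 and 13.1 CPM in GC WT and 612, 547 and 646 CPM in naive WT, and Klf2, a quiescence factor that drives S1pr1, at 10.3, 4.01 and 2.18 CPM in GC WT and 143, 202 and 213 CPM in naive WT. The groups were far apart for both genes. S1pr1, the egress receptor, had 47.7, 32.0 and 40.6 CPM in GC WT libraries, against 411, 392.1 and 412 CPM in naive WT. The chemokine receptor genes Ccr7 and Cxcr5, which position cells at and in the follicle, differed by −2.50 ± 0.28 and −3.11 ± 0.26. Ccr6, a receptor of naive and memory B cells, was at 0 in the 3 GC WT libraries and 209, 266 and 250.4 CPM in naive WT libraries, at least 1334-fold lower. Cd38, an ectoenzyme that mouse germinal centre B cells lose, was at 51.6, 76.6 and 58.3 CPM in GC WT, against 897, 1025 and 899 CPM in naive WT. Tsc22d3, a glucocorticoid- and Foxo-responsive gene, was at 75.1, 114 and 71.8 CPM in GC WT and 1508, 1329 and 1603 CPM in naive WT. Some members were not called. Fcer2a, the low-affinity IgE receptor CD23, was at 2679, 2139.5 and 1809 CPM in GC WT and 1149.5, 1439.7 and 1411 CPM in naive WT libraries, higher in every GC WT library yet under 2-fold. Gpr183, the oxysterol receptor of activated B cells, stood at 759.8, 693 and 586 CPM in GC WT and 372, 466 and 434 CPM in naive WT, likewise higher and under 2-fold. Il4ra, the interleukin-4 receptor, was at 66.4, 57.3 and 79.2 CPM in GC WT and 95.1, 127 and 129 CPM in naive WT, lower in every GC WT library and under 2-fold.

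B cell identity and receptor genes were lower too, while most MHC class II genes were not called. Of 14 pan-B genes, 10 were lower and 1 higher, and of 24 B cell receptor genes, 10 were lower and 3 higher. Ebf1, a B lineage factor, was at 94.5, 105 and 110.3 CPM in GC WT libraries and 476, 525 and 440.2 CPM in naive WT libraries, a difference of −2.21 ± 0.10. Pax5, the B lineage commitment factor, differed by −1.37 ± 0.38, and by −0.99, without a call, when GC WT replicate 2 was left out. Syk, the kinase next to the receptor, was at 43.9, 15.6 and 27.2 CPM in GC WT and 378.8, 271 and 329.5 CPM in naive WT, and Cd22, an inhibitory co-receptor, at 108, 87.0 and 122 CPM in GC WT and 724, 625 and 776 CPM in naive WT. The scaffold gene Bank1 was at 119.7, 36.1 and 25.8 CPM in GC WT, against 737, 866 and 878 CPM in naive WT. Of 13 MHC class II genes 9 were neither, 3 lower and 1 higher, and the list summed to 84515 CPM ± 7840 in GC WT and 71901 CPM ± 4329 in naive WT libraries (SD, n = 3 each). The lower members included H2-Oa and H2-Ob, which restrain peptide loading, at 498, 534 and 458 CPM in GC WT and 1549, 1613 and 1361 CPM in naive WT for H2-Ob. Interferon-stimulated genes were lower in 15 of 24 and higher in 1. Ifit3 was at 7.36, 0 and 0 CPM in GC WT and 60.6, 98.7 and 91.9 CPM in naive WT, and Rtp4 was at 0 in the 3 GC WT libraries, against 62.9, 56.8 and 59.8 CPM in naive WT, at least 329.6-fold lower.

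Part of the genes of T cell help and NF-kB signalling was higher in the GC WT libraries. Of 24 light zone genes 11 were higher, 4 lower and 9 neither. Of 22 NF-kB and CD40 genes 11 were higher and 2 lower, and of 17 interleukin-4 and Stat6 genes 8 were higher and 3 lower. Among protein-coding genes 27.8% were higher and 14.5% lower. The lists share members, so their counts are not separate. Il4i1, an amino acid oxidase induced by interleukin-4, was at 1923, 1712 and 1591 CPM in GC WT libraries and 193, 267 and 199.8 CPM in naive WT libraries, a difference of 2.99 ± 0.17. Ebi3, a subunit of interleukin-27 and interleukin-35, was at 640.1, 535 and 334 CPM in GC WT and 27.7, 16.9 and 11.0 CPM in naive WT. Cd83, an activation antigen of the light zone, was at 3746, 3010.2 and 2668 CPM in GC WT, against 1477, 1384 and 1467 CPM in naive WT, a difference of 1.11 that was 0.97, and not called, without GC WT replicate 1. Cd80, a ligand of CD28, was at 28.1, 20.5 and 38.1 CPM in GC WT, against 2.65, 0 and 0 CPM in naive WT. Its partner Cd86 was at 80.0, 77.5 and 37.4 CPM in GC WT and 85.3, 82.9 and 81.7 CPM in naive WT and Cd40 at 171, 145 and 113 CPM in GC WT and 128, 169.9 and 135 CPM in naive WT, and neither was called. Tnfaip3, an NF-kB feedback inhibitor, was at 146, 94.4 and 162 CPM in GC WT, against 36.1, 10.4 and 33.2 CPM in naive WT.

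Il2ra and several Stat5-related genes, which form no list of their own here, were called higher. Cish, Nfil3 and Bcl2l1 are on the interleukin-4 and Stat6 list and Stat5a on the NF-kB and CD40 list. Their calls are therefore already in the counts above and are not separate. Il2ra, the high-affinity interleukin-2 receptor chain CD25 (chromosome 2, 11642807 to 11693193, mm10), was at 156, 143 and 159 CPM in GC WT libraries and 0.248, 0 and 0 CPM in naive WT libraries. Socs2, a cytokine-induced inhibitor, averaged 270.3 CPM ± 31.7 in GC WT and 1.24 CPM ± 1.24 in naive WT (SD, n = 3 each), a difference of 7.09 ± 0.54. Cish, a Stat5 target of the same family, was at 88.5, 50.8 and 106 CPM in GC WT and 7.53, 0 and 0 CPM in naive WT. Stat5a itself was at 71.4, 63.3 and 74.3 CPM in GC WT, against 3.23, 18.1 and 11.2 CPM in naive WT. The survival gene Bcl2l1 stood at 45.3, 61.1 and 57.0 CPM in GC WT and 8.19, 3.51 and 0 CPM in naive WT and the factor gene Nfil3 at 83.3, 92.9 and 148 CPM in GC WT and 1.99, 0 and 0 CPM in naive WT. A call requires groups that do not overlap, so the lack of overlap for these 6 genes follows from the rule. Another cytokine receptor gene, Il10ra, was at 0 in the 3 GC WT libraries, against 162, 67.8 and 105 CPM in naive WT, at least 616-fold lower. Of the 3 lower interleukin-4 genes, picked here after their values were seen, Stat6, the mediator of interleukin-4 signals, differed by −2.25, Socs3 by −1.89 and Cdh17 by −3.29.

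**Figure D3:**
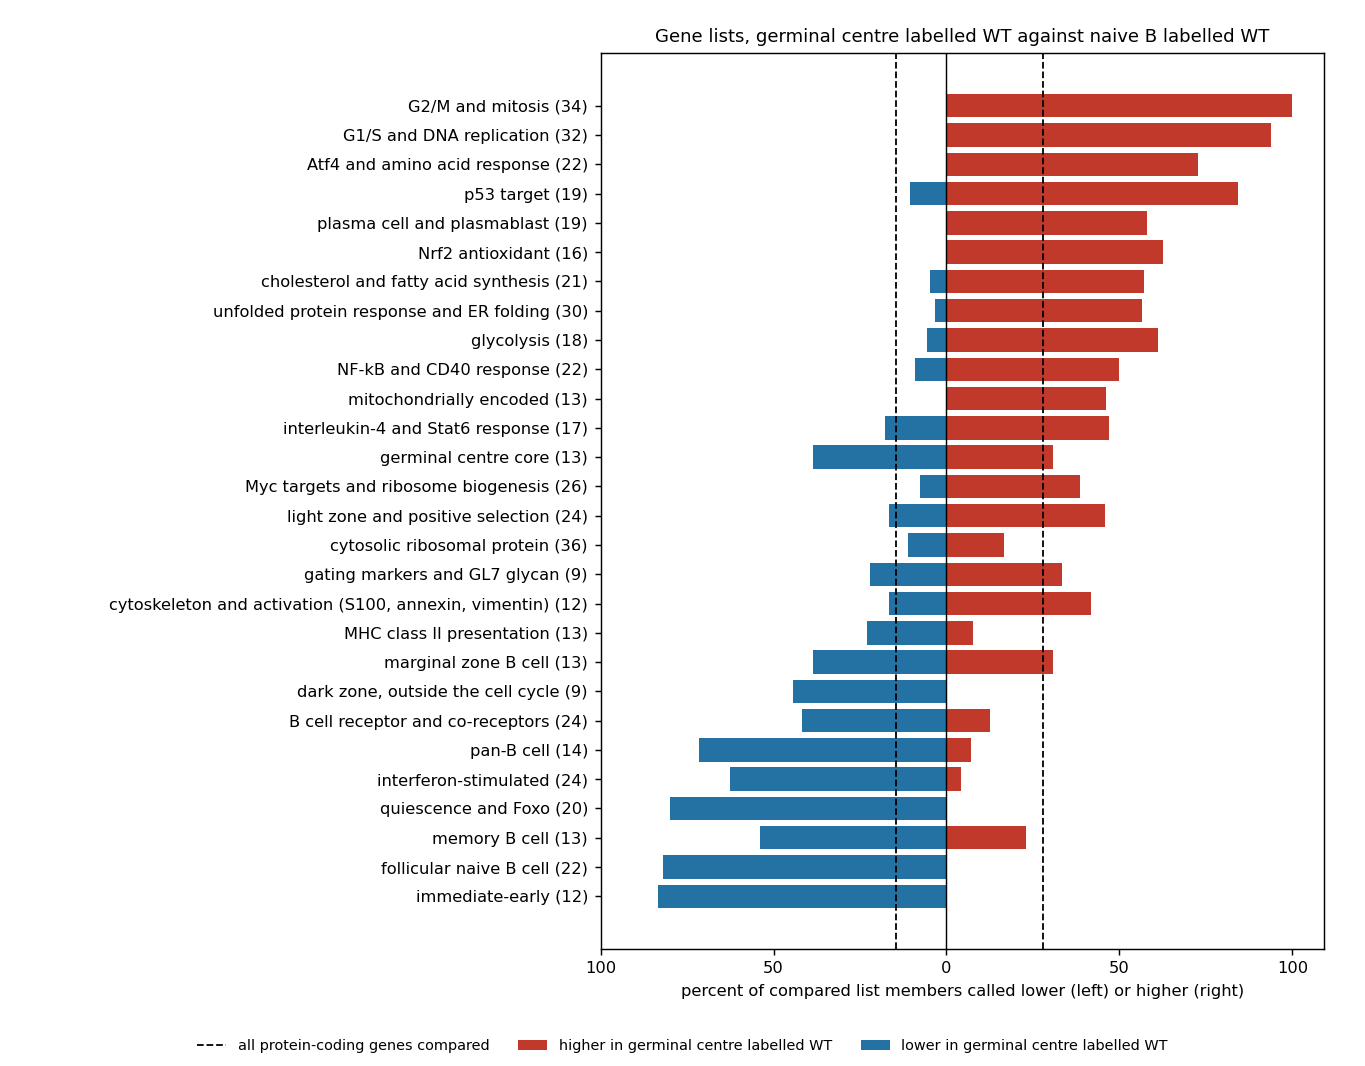
The percent of compared members called higher (right) or lower (left) in GC WT against naive WT libraries, for each gene list with at least 9 compared genes, the number compared in brackets, and dashed lines at the shares of all protein-coding genes, 27.8% and 14.5%. Lists are ordered by median difference, with cell cycle lists at the top, where 34 of 34 G2/M genes were higher, and immediate-early and follicular naive genes at the bottom.

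Plasma cell regulators were above naive levels and, on the rescaled values, below those of antibody-secreting cells. Of 19 compared plasma cell genes 11 were higher and none lower. Prdm1, the Blimp-1 repressor, was at 112, 104 and 67.4 CPM in GC WT libraries and 0, 8.40 and 0.189 CPM in naive WT libraries, a difference of 5.38 ± 1.06. Xbp1, which expands the secretory apparatus (chromosome 11, 5520659 to 5525893, mm10), was at 2701, 3389 and 4441 CPM in GC WT, against 416, 353 and 391.7 CPM in naive WT. In spleen antibody-secreting cells it averaged 17487 ± 884 CPM. Irf4, needed for plasma cell fate, was at 146, 212.4 and 140.5 CPM in GC WT and 45.2, 60.7 and 68.9 CPM in naive WT, and averaged 616 ± 217 CPM in spleen antibody-secreting cells. Slamf7, a SLAM family receptor, was at 605, 594 and 676 CPM in GC WT, against 51.4, 56.4 and 69.6 CPM in naive WT. Sdc1, the CD138 of plasma cells, was at 21.3, 59.4 and 109.6 CPM in GC WT libraries and 37.9, 7.66 and 7.29 CPM in naive WT libraries, and the groups overlapped. The list summed to 10209 CPM ± 1486 in GC WT libraries, 41783 CPM ± 928 in spleen antibody-secreting cells and 3468 CPM ± 100.2 in naive WT libraries (SD, n = 3 each). Immunoglobulin genes took 61.5% to 66.1% of the total in the antibody-secreting libraries. The shared genes kept 22.4% to 26.7% of the total there, against 84.3% to 91.0% in GC WT libraries. Rescaling therefore raised antibody-secreting values more than GC WT values. Slamf7 averaged 884 ± 127 CPM in spleen antibody-secreting cells on the rescaled values, a gap from GC WT smaller than that difference in scaling. The order without rescaling was not examined, so the rescaled order does not settle which group is higher.

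Secretory and stress genes were higher as well. Of 30 unfolded protein response and ER folding genes 17 were higher and 1 lower. Creld2, an ER stress gene, was at 233, 329.7 and 294.7 CPM in GC WT and 20.4, 18.8 and 15.6 CPM in naive WT libraries, and the ER chaperone gene Hsp90b1 at 1543, 2401 and 2425 CPM in GC WT and 275.1, 256 and 294.4 CPM in naive WT. Hspa5, the BiP chaperone, was at 2694, 3815 and 3216 CPM in GC WT and 1649, 1632 and 1730.1 CPM in naive WT, higher in every library and just under 2-fold. The letters CCACG, part of the ER stress element, were in 11 of 15 promoters (73.3%) of the higher genes, against 35.5% of all genes in the table. Of 22 Atf4 and amino acid response genes 16 were higher and none lower. Asns, asparagine synthetase (chromosome 6, 7675169 to 7693254, mm10), was at 320.0, 359.7 and 299 CPM in GC WT libraries and 3.14, 0 and 1.89 CPM in naive WT libraries, a difference of 7.15 ± 0.62. The stress factor gene Ddit3 was at 157, 129 and 133 CPM in GC WT and 58.1, 45.7 and 28.7 CPM in naive WT, and Chac1, a glutathione-degrading enzyme, at 42.9, 29.9 and 31.6 CPM in GC WT, against 0 in the 3 naive WT libraries, at least 123-fold higher. Of 16 Nrf2 antioxidant genes 10 were higher and none lower. Nqo1, the quinone reductase, was at 123, 146 and 104 CPM in GC WT, against 0 in the 3 naive WT libraries, at least 439-fold higher. Txn1, thioredoxin, was at 228, 243 and 258.6 CPM in GC WT and 21.0, 27.9 and 20.1 CPM in naive WT. Hmox1, haem oxygenase, was at 37.2, 72.3 and 12.4 CPM in GC WT and 0, 6.83 and 9.37 CPM in naive WT, a difference of 2.95 that was 1.89 without naive WT replicate 1. The letters TGACNNNGC were in 3 of 7 promoters (42.9%) of the higher Nrf2 genes, against 14.0%.

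Of 19 p53 target genes 16 were higher and 2 lower. Cdkn1a, the p21 inhibitor of cyclin-dependent kinases (chromosome 17, 29090976 to 29100727, mm10), was at 635, 693 and 706 CPM in GC WT libraries and 0, 1.11 and 1.99 CPM in naive WT libraries, and its difference of 8.52 ± 0.47 was the largest among the higher genes named by rule. Mdm2, the p53 ubiquitin ligase, was at 187, 167 and 222.3 CPM in GC WT and 47.2, 47.2 and 64.2 CPM in naive WT, and Rps27l, a p53-induced ribosomal protein homologue, at 240.3, 292 and 337 CPM in GC WT and 11.3, 11.2 and 9.00 CPM in naive WT. Phlda3, an Akt inhibitor, varied, at 30.4, 15.1 and 138 CPM in GC WT libraries with replicate 3 highest, against 0 in naive WT. Of 18 glycolysis genes 11 were higher and 1 lower, with Pgk1 at 151, 195 and 182 CPM in GC WT and 22.6, 30.1 and 27.7 CPM in naive WT. Of 21 sterol and fatty acid synthesis genes 12 were higher and 1 lower. Idi1, an isoprenoid enzyme, was at 502, 648 and 402 CPM in GC WT, against 49.2, 25.6 and 51.2 CPM in naive WT, whereas Scd1, the stearoyl-CoA desaturase, was the lower member, at 57.8, 87.3 and 70.3 CPM in GC WT and 976, 894 and 1079.7 CPM in naive WT. Of 26 Myc target and ribosome biogenesis genes 10 were higher and 2 lower. Tfrc, the transferrin receptor, was at 141, 201 and 188 CPM in GC WT and 18.4, 34.2 and 16.9 CPM in naive WT. Myc itself was lower in every GC WT library, at 91.1, 121 and 93.1 CPM in GC WT, against 196.1, 134 and 274.9 CPM in naive WT, and its difference of −0.93 ± 0.33 stayed under the threshold.

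**Figure D4:**
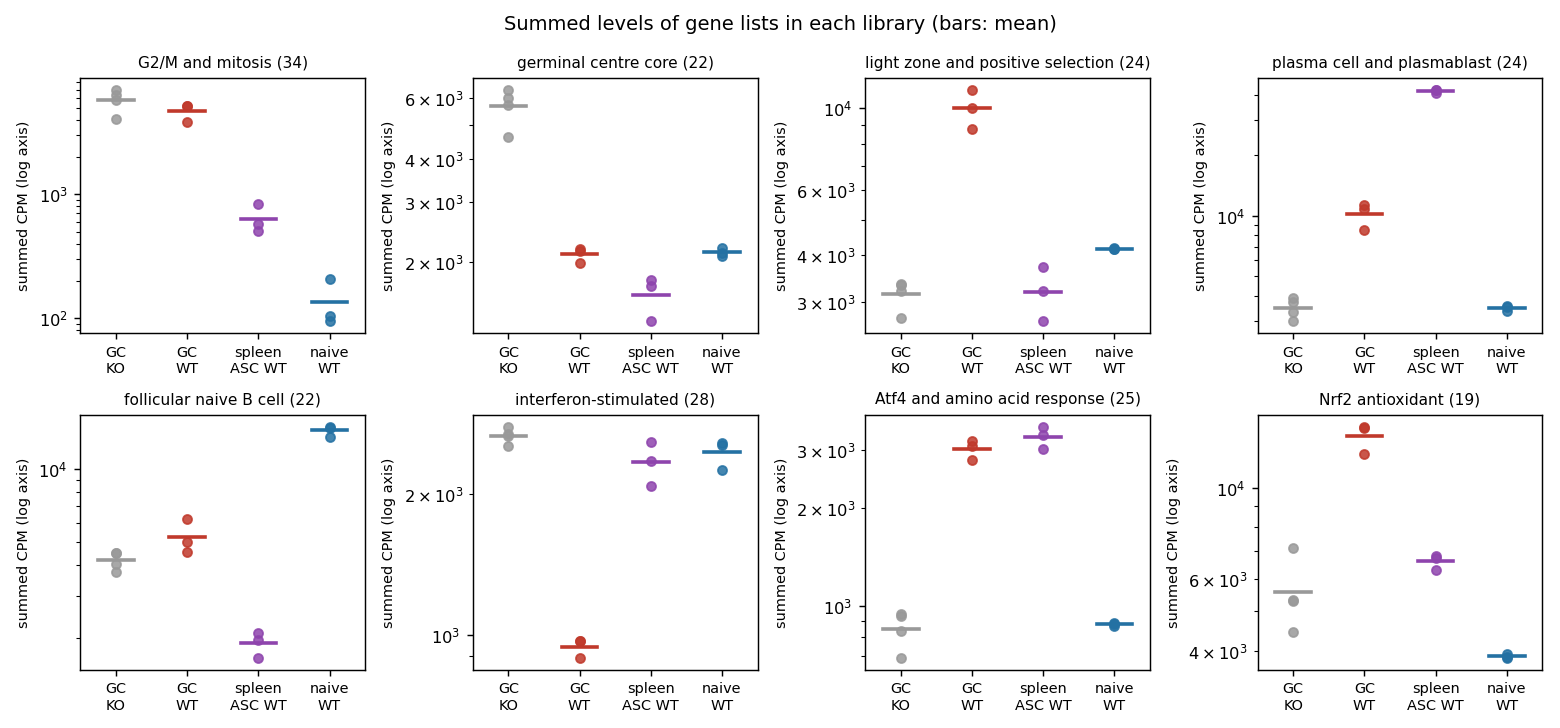
Summed CPM (log axes, each panel with its own range) of 8 gene lists in each GC KO, GC WT, spleen antibody-secreting (ASC) WT and naive WT library, with bars at the group means. GC WT libraries overlapped GC KO libraries for G2/M genes, lay near naive WT for germinal centre core genes and below naive WT for interferon-stimulated genes.

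Several of the widest gaps belonged to genes outside the lists, Tmem176b, Tmem176a, Cst7, Timd2 and Pon3 among them. Tmem176b, an intracellular ion channel gene best known in dendritic cells (chromosome 6, 48833818 to 48841496, mm10), was at 855, 964 and 841 CPM in GC WT libraries and 0.91, 2.77 and 2.56 CPM in naive WT libraries, a difference of 8.23 ± 0.32. Its neighbour Tmem176a was at 433, 427 and 382 CPM in GC WT and 1.57, 0 and 2.08 CPM in naive WT. Cst7, the cysteine protease inhibitor cystatin F (chromosome 2, 150570415 to 150578944, mm10), was at 611, 532 and 412 CPM in GC WT and 1.41, 0 and 1.52 CPM in naive WT. Timd2, a ferritin receptor of the TIM family in mouse, was at 159.8, 227 and 206 CPM in GC WT, against 0 in the 3 naive WT libraries, at least 695-fold higher. Pon3, a lactonase, had 119.6, 208 and 166 CPM in GC WT and 0, 0.185 and 0.663 CPM in naive WT, and the stress gene Nupr1, which is on the Atf4 list, 160.0, 134 and 88.8 CPM in GC WT, against 0 in the 3 naive WT libraries, at least 449-fold higher. For each of these 6 genes the GC WT libraries lay within 2-fold of each other.

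Immediate-early genes, which cells induce within minutes of a stimulus, had the lowest median difference of the lists with at least 9 compared genes, −4.92, with 10 of 12 lower and none higher. Fos (chromosome 12, 85473890 to 85477273, mm10) was at 0, 0 and 0.121 CPM in GC WT libraries and 1426, 1419 and 2016 CPM in naive WT libraries, a difference of −10.59 ± 0.18. Junb, a partner of Fos, was at 16.7, 20.1 and 22.1 CPM in GC WT and 1768, 1502 and 2075 CPM in naive WT, and Egr1, a factor induced by receptor signals, at 14.1, 8.49 and 3.14 CPM in GC WT and 240.1, 218 and 228 CPM in naive WT. The heat shock genes Hspa1a and Hspa1b, near-identical copies of each other, were lower too. Hspa1a was at 36.2, 0 and 0 CPM in GC WT, against 1703, 3222 and 3209 CPM in naive WT. The 4 lower members of the light zone list, Egr1, Egr3, Nr4a1 and Dusp2, are of this immediate-early kind. The immediate-early list summed to 1594 CPM ± 185 in GC WT libraries, 15167 CPM ± 3069 in spleen antibody-secreting cells and 11465 CPM ± 1459 in naive WT libraries (SD, n = 3 each). In the GC KO libraries it summed to 953 CPM ± 86.9 (SD, n = 4), so the low sum was not particular to GC WT. Single genes did differ. Fos averaged 63.3 deposited CPM ± 18.1 in GC KO and 0.034 ± 0.059 in GC WT (adjusted p = 0.000687 by limma). Of 11 immediate-early genes tested, 3 were higher in GC KO and 2 lower.

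Ribosomal, mitochondrial and cytoskeletal lists were mixed. Of 36 cytosolic ribosomal protein genes, which have many pseudogenes, 6 were higher, 4 lower and 26 neither. Of 13 mitochondrially encoded genes 6 were higher and none lower. The cytochrome b gene mt-Cytb was at 5759, 7898 and 9038 CPM in GC WT and 2315, 3318 and 3002 CPM in naive WT, a difference of 1.39 ± 0.25. Against the naive libraries labelled knockout it was 0.48 and was not called. Of 12 compared S100, annexin and vimentin genes 5 were higher and 2 lower. Lgals1, the galectin-1 gene, was at 197, 189.8 and 131 CPM in GC WT and 13.5, 11.1 and 7.77 CPM in naive WT, while S100a10, an annexin partner, was at 28.6, 39.9 and 62.8 CPM in GC WT and 197, 175 and 147 CPM in naive WT.

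Markers of other B cell fates did not single out one of them. Of 13 compared memory B cell genes 7 were lower and 3 higher. Cd80 above was among the higher, while Hhex, a memory factor, was at 8.13, 0.059 and 0 CPM in GC WT libraries and 133, 138 and 105 CPM in naive WT libraries. Pdcd1lg2, the PD-L2 ligand, was at 6.81, 1.18 and 8.95 CPM in GC WT and 28.0, 26.2 and 24.3 CPM in naive WT, and Nt5e, the CD73 enzyme, reached at most 1.53 CPM in GC WT and 6.92 CPM in naive WT. Of 10 age-associated B cell markers 4 were compared, with Fas the only one called. Itgax was at 0 in all 6 libraries, and Tbx21, the T-bet factor, was at 0 in GC WT, against 8.02, 8.31 and 16.3 CPM in naive WT. Of 6 compared B-1 genes 3 were higher and 2 lower. Cd9, a tetraspanin of B-1, marginal zone and plasma cells, was at 178, 231 and 123.8 CPM in GC WT and 23.6, 16.8 and 8.41 CPM in naive WT, while Rasgrp1, a Ras activator, was at 15.9, 1.53 and 0.0605 CPM in GC WT and 103, 110.1 and 134 CPM in naive WT. Marginal zone genes split, with 4 of 13 higher and 5 lower. Notch2, the receptor that directs marginal zone fate, was at 1.73, 7.49 and 19.9 CPM in GC WT and 85.1, 68.1 and 92.3 CPM in naive WT libraries, and its target Dtx1 at 12.6, 5.78 and 5.75 CPM in GC WT and 155, 115 and 111 CPM in naive WT.

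Summed markers of T cells, macrophages and erythroid cells were lower in GC WT than in naive WT libraries. Sums of dendritic cell, NK and neutrophil markers overlapped, and some macrophage genes were higher in GC WT. T cell markers summed to 137.0 to 228.3 CPM over 20 genes in GC WT libraries and 605.8 to 688.6 CPM in naive WT libraries, and 10 of the 20 were at 0 in all 3 GC WT libraries, Cd3d, Cd3e, Cd3g, Trbc2, Cd4 and Cd8a among them. Of 5 compared, Thy1 and Cd28 were higher and Cd2 lower. Monocyte and macrophage markers summed to 779.8 to 821.9 CPM over 17 genes in GC WT, against 1083 to 1172 CPM in naive WT, with 11 at 0 in all 3 GC WT libraries, C1qa, C1qb, Csf1r, Cd14 and Lyz2 among them. Of 6 compared, 4 were higher and 2 lower. Adgre1, the F4/80 antigen, was at 184, 59.3 and 40.4 CPM in GC WT, against 2.48, 4.71 and 0 CPM in naive WT, and Apoe at 67.1, 75.1 and 37.9 CPM in GC WT and 789.5, 791 and 725 CPM in naive WT, while the lysozyme gene Lyz2 was at 7.78, 68.1 and 31.5 CPM in naive WT. Erythroid genes summed to 3.71 to 22.9 CPM in GC WT and 292.4 to 1436 CPM in naive WT libraries, and all 5 compared were lower. Neutrophil markers summed to 0 to 0.661 CPM in GC WT, against 0.496 to 179.4 CPM in naive WT. NK markers summed to 9.60 to 15.1 CPM in GC WT and 13.9 to 46.1 CPM in naive WT. Dendritic cell markers summed to 303.1 to 351.0 CPM in GC WT and 283.7 to 329.5 CPM in naive WT, and none of 2 compared was called. Stromal markers, which include Cr2 of B cells, summed to 22.9 to 35.8 CPM in GC WT and 775.9 to 849.0 CPM in naive WT. The part of such cells in the differences above was not tested.

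Heavy-chain class was read within each deposited table, as a share of heavy-chain constant CPM. Ighm, the IgM constant gene (chromosome 12, 113418558 to 113422730, mm10), made up 93.3% ± 6.17 of it in GC WT libraries (86.3% to 97.6%) and 61.6% ± 0.88 in naive WT libraries (SD, n = 3 each). Ighd, the IgD constant gene, made up 0.12% ± 0.077 in GC WT, against 33.1% ± 1.15 in naive WT, which were gated on IgD. Ighg1 made up 2.94% ± 1.90 in GC WT, against 0.096% ± 0.085 in naive WT. Ighe made up 0.49% ± 0.33 in GC WT, against 0 in the naive WT libraries, where 0 reads allow up to 0.00252%. In GC KO libraries Ighm made up 45.7% ± 19.0 and Igha 28.7% ± 17.9 (SD, n = 4), against 1.96% ± 2.59 for Igha in GC WT. Heavy-chain constant genes summed to 32575 deposited CPM ± 10145 in GC WT and 10640 ± 183 in naive WT libraries. Jchain, which joins IgM and IgA polymers, was at 3719 deposited CPM ± 1446 in GC WT, against 423.0 ± 49.1 in naive WT. In GC KO libraries it was at 7923 deposited CPM ± 3444 (SD, n = 4), so a level above naive was not particular to GC WT.

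**Figure D5:**
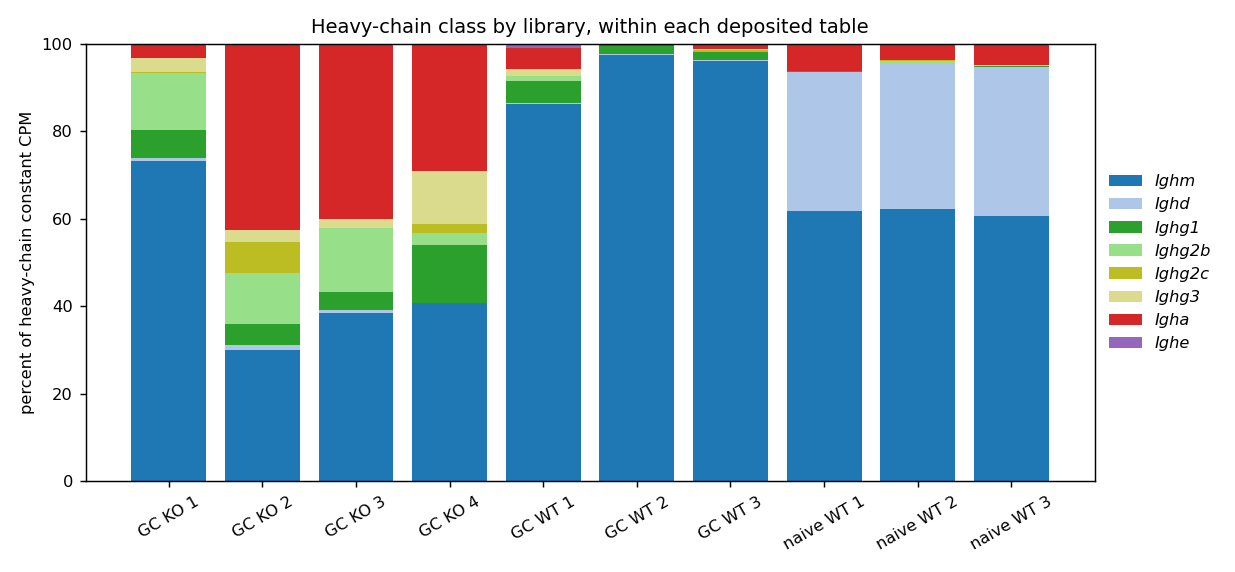
Percent of heavy-chain constant CPM by class in each GC KO, GC WT and naive WT library (stacked bars). Ighm held 86.3% to 97.6% in GC WT libraries and 73.3% at most in GC KO libraries, and Ighd 33.1% ± 1.15 in naive WT libraries.

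Within the germinal centre table a test was possible, of GC KO against GC WT libraries, on log2(deposited CPM + 1) with limma, where 728 of 8522 genes (8.54%) were higher in GC KO and 434 (5.09%) lower. Both groups carry the same germinal centre gate. The count was 732, 603 and 712 genes without GC WT replicate 1, 2 or 3, against 1162 with all. Core genes differed: 15 of 21 tested were higher in GC KO and 1 lower. Mybl1, a factor of dividing germinal centre B cells, averaged 35.7 deposited CPM ± 13.3 in GC KO and 1.22 ± 0.244 in GC WT (adjusted p = 0.00514 by limma). Fas did not pass, at 249.7 deposited CPM ± 31.0 in GC KO and 213 ± 14.6 in GC WT (adjusted p = 0.41 by limma), nor did Ccnb1, at 98.7 deposited CPM ± 22.4 in GC KO and 127 ± 23.1 in GC WT (adjusted p = 0.368 by limma). T cell markers were higher in GC KO too, in 16 of 18 tested, and summed to 1950 to 3890 CPM over shared genes in GC KO and 137.0 to 228.3 CPM in GC WT. Monocyte and macrophage markers were higher in 5 of 14 tested, with sums of 1259 to 6446 CPM in GC KO and 779.8 to 821.9 CPM in GC WT. Their part in these differences was not tested.

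Part of the activation and stress lists was lower in GC KO in that test. Of 16 interleukin-4 and Stat6 genes 9 were lower in GC KO and none higher, of 22 NF-kB and CD40 genes 10 were lower and 1 higher, and of 22 Atf4 genes 11 were lower and none higher. Among 30 tested genes of the unfolded protein response, GC KO was lower in 11 and higher in none, of 19 p53 targets 7 were lower and 1 higher, and of 16 Nrf2 genes 4 were lower and 1 higher. Il4i1 averaged 128 deposited CPM ± 75.6 in GC KO and 1514 ± 212.5 in GC WT (log2 fold change −3.77 with SE 0.46, adjusted p = 0.0013 by limma). Ebi3 averaged 25.3 deposited CPM ± 14.2 in GC KO and 439 ± 151 in GC WT (adjusted p = 0.000837 by limma), and Socs2 7.17 deposited CPM ± 6.49 in GC KO and 234.6 ± 33.0 in GC WT (adjusted p = 0.00189 by limma). Cish was at 0 in the 4 GC KO libraries and averaged 70.9 deposited CPM ± 24.5 in GC WT (adjusted p = 0.00151 by limma). Tmem176b averaged 27.3 deposited CPM ± 4.48 in GC KO and 768 ± 54.4 in GC WT (log2 fold change −4.77 with SE 0.20, adjusted p = 6.09e-06 by limma). Cst7 averaged 11.4 deposited CPM ± 10.9 in GC KO and 451 ± 105 in GC WT (adjusted p = 0.00422 by limma), and Asns 32.3 deposited CPM ± 15.1 in GC KO and 282.5 ± 27.5 in GC WT (adjusted p = 0.00136 by limma). Il2ra did not pass, at 19.1 deposited CPM ± 17.1 in GC KO and 132 ± 10.9 in GC WT (adjusted p = 0.0614 by limma). Its adjusted p by limma ran from 0.00673 to 0.168 with 1 library left out. St3gal6 was lower in GC KO, at 25.9 deposited CPM ± 7.64 in GC KO and 242 ± 32.1 in GC WT (adjusted p = 0.000321 by limma).

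Some genes lower in GC WT than in naive WT libraries were also lower there than in GC KO libraries. Follicular naive genes were higher in GC KO in 13 of 22 tested and lower in 3, and interferon-stimulated genes higher in 12 of 23 and lower in none. Ccr6 averaged 59.3 deposited CPM ± 37.5 in GC KO and was at 0 in the 3 GC WT libraries (adjusted p = 0.00358 by limma). Syk averaged 172 deposited CPM ± 35.3 in GC KO and 25.3 ± 13.6 in GC WT (adjusted p = 0.00175 by limma) and Spib 89.4 deposited CPM ± 31.1 in GC KO and 16.5 ± 3.44 in GC WT (adjusted p = 0.00379 by limma). Cd38 averaged 194 deposited CPM ± 54.9 in GC KO and 53.6 ± 9.75 in GC WT (adjusted p = 0.00251 by limma). Nt5e was under the filter and overlapped between GC WT and naive WT libraries. It averaged 108 deposited CPM ± 42.6 in GC KO and 0.432 ± 0.749 in GC WT (adjusted p = 0.000562 by limma). Cd86, lower in every GC WT library than in naive WT but by under 2-fold, averaged 219.9 deposited CPM ± 35.2 in GC KO and 56.7 ± 22.1 in GC WT (adjusted p = 0.00326 by limma).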

How the data were processed

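RNA-seq values were deposited by the authors as CPM (counts per 1000000 assigned), and each column sums to 1000000. Reads were aligned with STAR to mm10, per the submitters' processing notes. A counting tool, annotation or strand setting is not given in the sources used here. The offset of 0.0001 in the germinal centre table was subtracted. Of 17939 rows in that table and 19416 in the naive table, 15235 gene names occurred once in both, 242 immunoglobulin and Jchain rows were removed, and 14993 were rescaled to 1000000 per library. Steps between low values gave 1 read, but at most 60.3% of values below 20 reads were whole (within 0.02) in the germinal centre table, so no count test was run. The germinal centre and naive tables list different genes and differ in pseudogene share, so calls between them are descriptions. The titled WT2 and WT3 germinal centre samples name columns W3 and W2, and the labels were followed.

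GC KO was tested against GC WT with limma-trend (limma 3.58.1, R 4.3.3) on log2(deposited CPM + 1), over genes with a mean of 10 or more, and Benjamini-Hochberg adjusted p under 0.05 was called. The labels do not say which mouse gave which library, so p-values measure the spread between these samples. The call rule and the limma step were tested on simulated data. The 37 gene lists, the fixed genes and the comparison itself were chosen with earlier results of these data known. List members left out of counts averaged under 10 CPM or were not in both tables. Named genes were a fixed set, the 12 with the largest called difference each way among protein-coding genes reaching 50 in the higher group, and up to 4 called members of each list. Some genes are named outside this rule, to complete a list. Some genes that the rule chose are not reported here, though counts include them. Positions are from GENCODE M21 on mm10. Alternatives changed the pseudocount, filter, scaling, fold, gene class, naive group and replicates left out. Python 3.11.15, pandas 2.3.3 and matplotlib 3.10.9 were used. Bone marrow libraries were not used here.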

Additional observations from a re-analysis of the deposited data

How the results depend on the processing

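The counts were 2205 higher and 1952 lower. At a mean of 50 or more they were 1134 and 822, at 4-fold or more 1002 and 1206, and with no filter on low values 2631 and 3011. Among protein-coding genes they were 2156 and 1123. The smaller counts follow from fewer genes tested or a stricter fold. Both counts stayed within 1.5 times under the other pseudocounts and scalings, with the naive libraries labelled knockout in place of those labelled wild type, and with genes under 1 CPM in all naive (higher) or all germinal centre (lower) libraries left out, a choice made after seeing the data. With 1 library left out they ran from 2262 to 2359 higher and from 1939 to 2188 lower. The median difference was 0.10 as rescaled, 0.01 without rescaling and 0 when centred. Of the 145 called genes that the naming rule chose, none changed sign under any alternative run, 21 lost their call at 4-fold, and at most 4 under any other. These genes were picked from the same data for being called, so a kept sign was likely from the start.

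In the GC KO against GC WT test limma called 1162 genes, from 603 to 1134 with 1 library left out, the lowest without GC WT replicate 2. Other settings gave 1021 to 1422. With the replicate number as a replicate block it called 831. Same-numbered libraries did not deviate together (correlations of 0.08, 0.00 and 0.01), and not every library correlated best with its own number. No pairing by the numbers of the sample titles was seen, but so few correlations cannot exclude it. Pairing by the numbers in the column headers was not examined. No paired analysis was possible between GC WT and naive WT because that comparison is a description that comes from no test, and pairing was not examined there. The 3-read limits set how low a value can be told from 0.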
